A study of Mus musculus with 165 samples.

Results

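*Sox4*, *Gata2*, *Myb*, *Runx1*, *Hoxa9*, *Lmo2*, *Tal1* and *Meis1* encode transcription factors and a bridging cofactor that are known from hematopoietic stem and progenitor cells. These 8 genes, picked by symbol from the 36255 genes of the table, were followed over all time points of the macrophage and the neutrophil differentiation of PUER cells. PUER is a mouse myeloid progenitor line from PU.1−/− (Spi1-/-) animals, of bone marrow origin per the labels and of bone marrow or fetal liver origin in the study's text. It carries PU.1 fused to the estrogen receptor ligand-binding domain, so that 4-hydroxy-tamoxifen (OHT) activates the fusion protein. All groups come from this line, share the PU.1 deletion and the transgene, and are polyA RNA-Seq libraries of bulk cells. Undifferentiated cells were kept in 5 ng/ml IL3 without OHT and yielded 3 libraries. In the macrophage course (IL3-OHT) IL3 was kept and 200 nM OHT was added, and 81 libraries were taken at 27 time points from 1h to 168h. In the neutrophil course IL3 was replaced by 10 ng/ml GCSF for 48 h (GCSF 0h, 3 libraries) and 100 nM OHT was then added (GCSF-OHT, 78 libraries at 27 time points). The courses therefore differ in cytokine, pre-treatment and OHT dose, and these cannot be told apart. Fresh OHT and medium were given at 40h, 88h and 136h, and cells were detached with trypsin after 24h. No library without OHT was taken after 0h in either course, so OHT, time in culture and these steps cannot be told apart.

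Each time point had its own culture plate, so the replicates are wells, the p-values measure the spread between wells, and plate and time point cannot be told apart. Libraries held 14600246 to 33147945 reads on genes (median 21960878), and 1 read was worth a normalized count of 0.652 to 1.84. Values below are normalized counts, that is, estimated reads per gene divided by a library size factor, given as mean ± SD of the wells. A gene was called when its adjusted p was below 0.05 (limma, Benjamini-Hochberg over 17414 genes) and its log2 fold change exceeded 0.58 in size. The tests did not use the IL3-OHT libraries of 96h and 144h. *Spi1*, which encodes PU.1 and whose reads include the transgene, was present throughout, between 4482 and 13387 in single libraries. Among progenitor markers *Kit*, the stem cell factor receptor, was at a mean of 4053 in undifferentiated cells, whereas *Cd34* had at most 6 reads in any library. Of 9 mast cell and basophil markers 6, *Cpa3* among them, stayed at 3 reads or fewer in every library, but *Hdc*, the histamine-forming enzyme, was at a mean of 37.7 in undifferentiated cells and 328 at GCSF 0h, and *Mcpt8*, a basophil protease, reached 378 reads. The summed level of the 9 was 219.8 to 234.2 in undifferentiated and 518 to 638 in GCSF 0h libraries. Of 8 erythroid markers 3, *Hbb-bs* among them, stayed at 3 reads or fewer in every library, while *Klf1* and *Epor* reached 60 and 59 reads, and the 8 summed to 43.72 to 51.03 in undifferentiated and 33.9 to 52.1 in GCSF-OHT 168h libraries. The 6 megakaryocyte markers summed to 1662 to 1748 in undifferentiated, 856 to 1110 in GCSF 0h, 1425 to 1490 in IL3-OHT 168h and 467 to 575 in GCSF-OHT 168h libraries, with *Vwf* at a mean of 1300 at the start and 398 at the GCSF end. The 7 lymphoid markers, 4 of them at 3 reads or fewer in every library, summed to 66.2 to 82.8 in undifferentiated and 4.62 to 12.4 in GCSF 0h libraries. The part of these cell types in the results was not tested. In bulk RNA, fewer cells of a type and less RNA per cell cannot be told apart.

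The 8 genes fall into groups by function. LMO2 is a LIM-domain protein that does not bind DNA itself but bridges the basic helix-loop-helix factor TAL1 with its E-protein partners and the GATA factors, among them GATA2. RUNX1 is the DNA-binding subunit of core-binding factor, and MYB keeps immature blood cells proliferating and is well known for falling as they mature. SOX4 is an HMG-box factor of immature lymphoid and myeloid cells, and HOXA9 and MEIS1 act as a homeodomain pair in self-renewing progenitors. PU.1 itself is an ETS factor that recognizes a GGAA core.

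In the GRCm38 annotation (GENCODE M21), *Sox4* lies at chr13:28948919-28953713 on the minus strand as a single exon, and *Myb* at chr10:21124935-21160984 on the minus strand. *Lmo2* lies at chr2:103957986-103981878 and *Tal1* at chr4:115056426-115071755, both on the plus strand. *Runx1* lies at chr16:92601466-92826149 on the minus strand. *Gata2* lies at chr6:88193891-88207032 on the plus strand, *Hoxa9* at chr6:52223100-52231089 and *Meis1* at chr11:18879817-19018985, both on the minus strand. *Sox4*, *Myb*, *Runx1*, *Lmo2* and *Meis1* overlap a transcript on the opposite strand (*Gm26735*, *Gm26577*, *Gm26626*, *4931422A03Rik*, and *Gm16140* with *Gm16141*), and *Hoxa9* and *Meis1* overlap other transcripts on their own strand. Strand-specific quantification is not given in the sources used here, so reads of these partners may be counted in.

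Promoter sequences (RefSeq, GRCm38.p6) were matched for 7 of the 8 genes and are shown for *Sox4* and *Myb*, which moved in opposite directions, and for *Runx1*, whose distal and proximal promoters differ in the motifs searched. Each sequence covers the bases from 250 to 51 before the annotated start, 5′ to 3′ on the gene's strand. Capitals mark AGGAAG or its reverse complement, a form of the ETS site that is stricter than the GGAA core. The *Sox4* promoter (chr13:28953750-28953949, minus strand), the *Myb* promoter (chr10:21161035-21161234, minus strand), and the distal (chr16:92826125-92826324) and proximal (chr16:92697380-92697579) *Runx1* promoters read as follows.
Sox4: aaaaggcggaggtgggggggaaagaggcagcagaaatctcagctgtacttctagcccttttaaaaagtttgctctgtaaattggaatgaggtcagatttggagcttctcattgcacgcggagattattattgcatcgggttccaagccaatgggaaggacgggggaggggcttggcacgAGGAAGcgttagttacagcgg
Myb: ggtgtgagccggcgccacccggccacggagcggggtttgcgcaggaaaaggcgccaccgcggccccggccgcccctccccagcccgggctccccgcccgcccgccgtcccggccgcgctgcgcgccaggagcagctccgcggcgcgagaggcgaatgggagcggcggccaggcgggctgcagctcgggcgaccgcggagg
Runx1 distal: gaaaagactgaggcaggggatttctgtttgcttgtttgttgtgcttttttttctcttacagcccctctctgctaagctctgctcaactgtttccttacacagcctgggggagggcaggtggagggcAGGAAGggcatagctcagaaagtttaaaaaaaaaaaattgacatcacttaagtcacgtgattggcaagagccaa
Runx1 proximal: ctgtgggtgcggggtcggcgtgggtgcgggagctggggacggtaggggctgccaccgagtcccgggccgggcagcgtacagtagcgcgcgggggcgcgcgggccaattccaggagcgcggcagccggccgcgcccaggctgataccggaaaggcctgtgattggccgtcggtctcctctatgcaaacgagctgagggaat
The *Sox4* and the distal *Runx1* windows each held AGGAAG 1 time, and the *Myb* and proximal *Runx1* windows held no AGGAAG. The shorter GGAA was not searched or marked, and the *Myb* and proximal *Runx1* windows do hold it. AGGAAG occurred in 3 of the 10 promoter windows of these genes, the other one being that of *Hoxa9*, and in 23.9% of all 32851 promoter windows of this length. CANNTG, the E-box that TAL1 and its partners bind, was found 1 time in the *Sox4* window, 3 times in the distal *Runx1* window and in neither of the other windows printed, against 59.05% of all windows with at least 1. GATAA, the core of a GATA site, was absent from all 4 windows printed and present in 19.3% of all windows. TGTGGT, the core bound by RUNX factors, was likewise absent, against 11.6% of all windows. The MEIS motif TGACAG was absent from the 4 windows as well and present in 13.1% of all windows. All motifs were searched on both strands. The *Myb* window was 82% G or C, against a median of 51.5% over all windows. *Runx1* counts are per gene and add up both promoters.

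*Sox4*, *Myb*, *Lmo2*, *Tal1* and *Runx1* were expressed at mean normalized counts of 1653 to 5001 over all libraries. *Gata2* and *Hoxa9* were near the counting floor at 7.27 and 3.68, and *Meis1* was at 0 reads in 150 libraries. *Meis1* was not tested because no library reached a normalized count of 5. Of the 7 genes tested, all 7 were called over the IL3 course and 5 over the GCSF course, where 69.7% and 47.7% of all genes tested were called. *Runx1* and *Lmo2* were the genes not called over the GCSF course, with largest log2 fold changes of 0.48 and 0.56 against GCSF 0h. Without replicate 2 the GCSF course called 3 of the 7, losing *Gata2* and *Hoxa9*. Without replicate 3 it lost *Gata2* and gained *Lmo2* (0.67, adjusted p = 8.68e-25, limma).

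**Figure D1:**
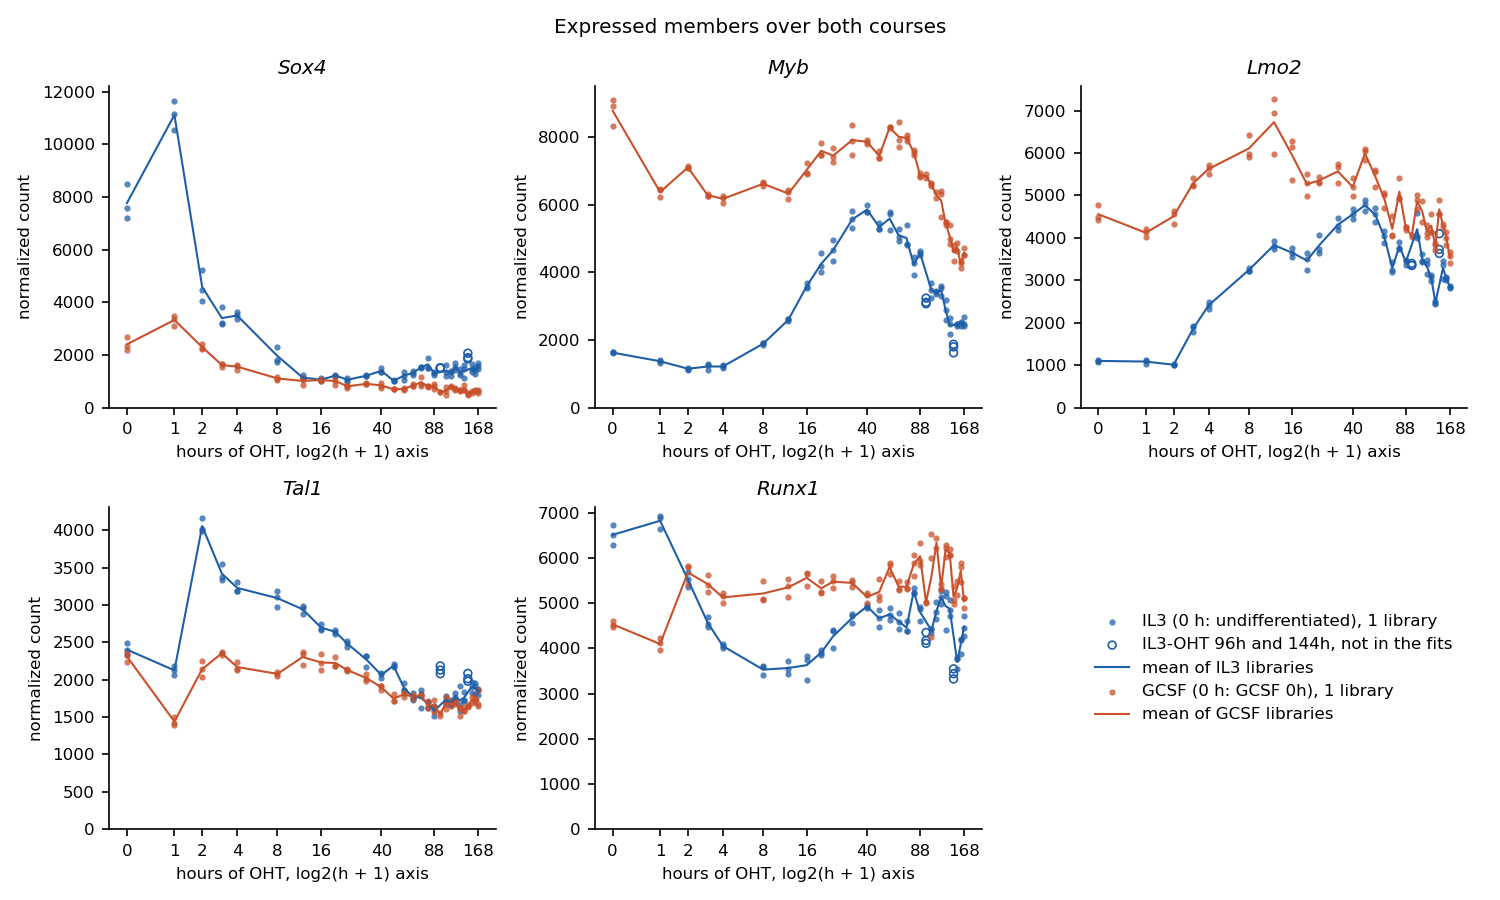
Normalized count of each expressed gene (vertical axes, from 0) against hours of OHT (horizontal axes, log2(h + 1) scale). Points are single libraries and lines are group means, blue for IL3 starting at undifferentiated and orange for GCSF starting at GCSF 0h. Open circles are IL3-OHT 96h and 144h. *Sox4* peaked at 1h and fell, *Myb* and *Lmo2* climbed in IL3, *Tal1* peaked at 2h in IL3, and *Runx1* dipped at 8h in IL3.

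*Sox4* carried the deepest fall of the expressed genes and was lower at both ends. The 3 undifferentiated libraries held 7598, 7212 and 8489 normalized counts of *Sox4*. After 1h of OHT in IL3 they held 11166, 11654 and 10524, above every library of every other group. The log2 fold change of this first step was 0.52 ± 0.11 (SE), under the size threshold, with an adjusted p of 7.18e-05. At 2h the libraries held 5212, 4478 and 4057, which is a step of −1.28 ± 0.11 on the log2 scale (adjusted p = 2.66e-20), called with 15.2% of genes. Of the steps between neighbouring IL3 time points, *Sox4* was called lower in 3, those to 2h, 8h and 12h, and reached its lowest mean of 1025 ± 24.6 at 48h (n = 3). Against undifferentiated cells it was called lower at 24 of the 25 IL3 time points tested, all but 1h. Over all genes and IL3 time points, 26.7% of pairs were called against the start and 3.65% from step to step.

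In GCSF, *Sox4* had already fallen before OHT. GCSF 0h libraries held 2698, 2324 and 2187, which is −1.69 ± 0.11 on the log2 scale relative to undifferentiated cells (adjusted p = 3.09e-29). *Sox4*, *Myb* and *Lmo2* were the 3 of 7 genes called in the GCSF pre-treatment, where 33.7% of all genes were called. A transient high at 1h was seen in this course too, with 3107, 3382 and 3493 in the libraries, above every other library of the GCSF course. The log2 fold change to 1h was 0.47 ± 0.11 (adjusted p = 2.06e-04), again under the size threshold. From 4h on *Sox4* was called lower than GCSF 0h at all 24 time points, where 15.4% of gene and time point pairs of the GCSF course were called. Its lowest mean was 519 ± 38.2 at 144h. At 168h it stood at 625 ± 53.7 in GCSF and at 1587 ± 116.7 in IL3.

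*Myb* moved the opposite way in the cytokine change and, from 8h on, in IL3-OHT. Undifferentiated libraries held 1640, 1602 and 1638 normalized counts of *Myb*, and GCSF 0h libraries held 8315, 8921 and 9113. The groups did not overlap, and the log2 fold change was 2.43 ± 0.05 (adjusted p = 2.46e-75). The mean at GCSF 0h was the highest of its course. In IL3, *Myb* first went to a low of 1150 ± 23.0 at 2h, −0.50 ± 0.05 on the log2 scale, which is under the size threshold. It was called higher in the step from 4h to 8h, by 0.64 ± 0.05 (adjusted p = 3.74e-22). It went on to 5857 ± 126.9 at 40h, where the libraries held 6004, 5781 and 5787, and returned to 2518 ± 134.7 at 168h. *Myb* was called higher than in undifferentiated cells at 19 of 25 IL3 time points, from 12h on with the exception of 136h.

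In GCSF the level of *Myb* stayed above the IL3 level at all times. It was 6375 ± 125.9 at 1h, −0.46 ± 0.05 on the log2 scale against GCSF 0h, and 8282 ± 22.02 at 56h. It was called lower than GCSF 0h at 6 of 27 time points, all from 128h to 168h, and ended at 4578 ± 113.9. Proliferation genes moved alongside: 14 of 15 listed genes were called higher at GCSF 0h than in undifferentiated cells and none lower, where 2261 of all 17414 genes were called higher and 3600 lower. The list's median log2 fold change was 1.57 beside −0.09 over all genes. *Mki67*, a marker of cycling cells, had a log2 fold change of 1.70 ± 0.09 there, and *Pcna*, the one gene not called, of 0.34 ± 0.05. Their summed level ranged over 23661 to 24860 in undifferentiated, 60729 to 67504 in GCSF 0h, 42135 to 45262 in GCSF-OHT 168h and 18281 to 19185 in IL3-OHT 168h libraries. At 168h in IL3, *Myb* was called higher than at the start. In that comparison 3 of the 15 proliferation genes were called lower and none higher, where 15.2% of all genes were called lower and 10.2% higher. The part of cell proliferation in the *Myb* values was not tested.

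*Lmo2* rose in the same comparisons. Undifferentiated libraries held 1131, 1070 and 1101 normalized counts of *Lmo2*, against 4485, 4420 and 4769 in GCSF 0h, a log2 fold change of 2.05 ± 0.05 (adjusted p = 1.87e-67). In IL3 the level was 1010 ± 16.0 at 2h and 1866 ± 68.2 at 3h. That step of 0.88 ± 0.05 (adjusted p = 1.23e-31) was the only one called for *Lmo2*. All 3 libraries at 3h, with 1787, 1897 and 1912, lay above all earlier IL3 libraries. *Lmo2* was called higher at all 23 IL3 time points tested from 3h on and reached 4770 ± 128.6 at 48h. In GCSF-OHT it peaked at 6728 ± 668 at 12h, with libraries at 6937, 7267 and 5980. It ended at 3549 ± 122.4, the lowest mean of the GCSF course, and was called at none of its 27 time points against GCSF 0h.

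*Tal1*, which partners with LMO2 on E-boxes, had its largest movement at 2h of OHT in IL3. The level there was 4015, 4169 and 3991 in the libraries, after 2124, 2068 and 2185 at 1h, and no library of another group reached these values. The step was 0.93 ± 0.04 on the log2 scale (adjusted p = 7.68e-41). *Tal1* then declined to 1590 ± 68.7 at 88h, and 2h and 88h were the only IL3 time points called against undifferentiated cells. At 1h in GCSF it moved down instead, from 2369, 2337 and 2232 at GCSF 0h to 1420, 1501 and 1398, by −0.68 ± 0.04 (adjusted p = 2.03e-29). It was the only one of the 7 genes called in that step, where 6.05% of all genes were called. In the first IL3 step none of the 7 was called, with 4.42% of all genes called. In the GCSF step from 1h to 2h none was called either, against 5.19% of all genes, and *Tal1* returned to 2143 ± 112 (0.57 ± 0.04, just under the size threshold). Steps of the GCSF course were called in 1.81% of all gene and time point pairs.

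*Runx1* was called lower from 4h to 24h of OHT in IL3 and was not called in GCSF. Its highest IL3 mean was 6827 ± 152 at 1h, which was not called (0.07 ± 0.06 on the log2 scale). Undifferentiated libraries held 6736, 6291 and 6519 normalized counts of *Runx1*, and IL3-OHT 8h libraries held 3585, 3405 and 3602, the lowest mean of the IL3 course. The log2 fold change was −0.88 ± 0.06 (adjusted p = 3.09e-29). *Runx1* was called lower at 8 of 25 IL3 time points, those from 4h to 24h and then 152h and 160h. In GCSF it was at 4604, 4518 and 4483 at 0h and at 3962, 4110 and 4222 at 1h, then at 5681 ± 226 at 2h, and it was called at no GCSF time point. At GCSF-OHT 104h 1 library stood at 4244 beside 5992 and 6542, so that the SD of 1200 was the widest of the series for *Runx1*. The same library was the deepest of all, with 33147945 reads, had the lowest *Sox4* value of all libraries, at 467, and held the highest count of *Meis1*, 5 reads. The part of that library in these values was not tested.

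Per length of exon, the order of the genes differed between the groups. In undifferentiated cells *Sox4* led with 1620 ± 136.6 normalized counts per kb, followed by *Tal1* at 549 ± 18.4 and *Runx1* at 542 ± 18.5, whose libraries overlapped, then *Lmo2* at 508 ± 14 and *Myb* at 182 ± 2.39. At GCSF 0h *Lmo2* led with 2104 ± 85.7 per kb, then *Myb* with 983 ± 46.6, with *Tal1* (528 ± 16.3) and *Sox4* (501 ± 55.1) overlapping and *Runx1* lowest at 377 ± 5.19. At IL3-OHT 168h the level of *Lmo2* was 1312 ± 9.27 per kb, and *Tal1* (421 ± 10.5) stood above *Runx1* (373 ± 18.7) and *Sox4* (331 ± 24.3), which overlapped, and above *Myb* (282 ± 15.1). At GCSF-OHT 168h the order was *Lmo2* (1639 ± 56.5 per kb), *Myb* (512 ± 12.8), *Runx1* (420 ± 10.6) overlapping with *Tal1* (395 ± 26.3), and *Sox4* (130 ± 11.2). *Sox4* thus went from the first to the last of these 5 genes in GCSF. Length here is the union of annotated exons, a single exon of 4795 bases for *Sox4*. For genes of several exons, such as *Runx1* with 12025 bases, the union can be longer than any single transcript. Levels per kb may thus be lowered unequally between the genes.

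**Figure D2:**
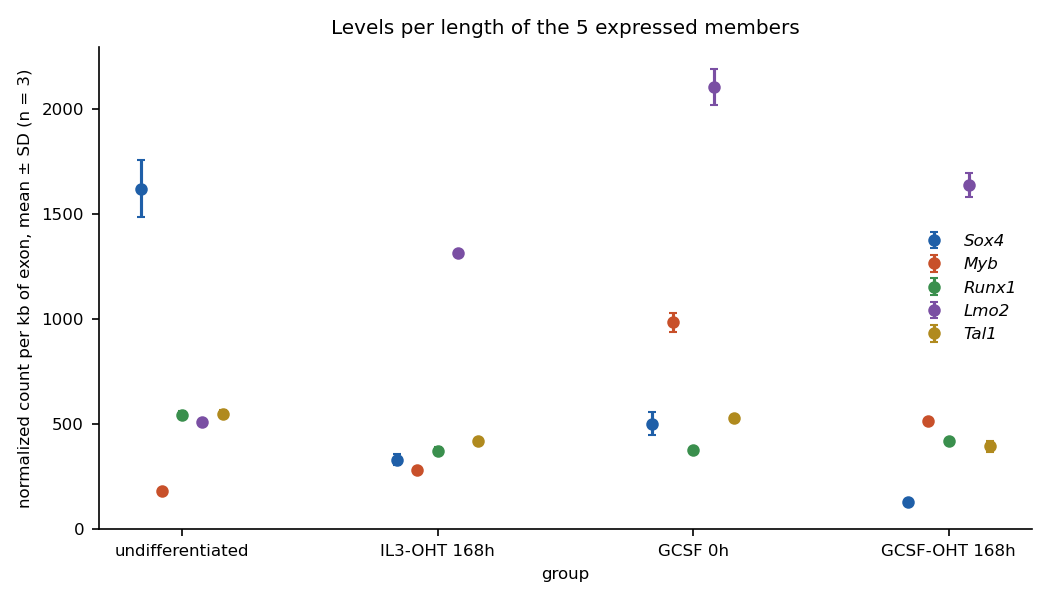
Normalized count per kb of exon (vertical axis, from 0) of the 5 expressed genes in 4 groups (horizontal axis). Points are means and bars SD of 3 libraries. *Sox4* was the highest of the 5 in undifferentiated cells, at 1620, and *Lmo2* in the other 3 groups.

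At the end of the macrophage course *Sox4* and *Gata2* were lower and *Myb*, *Lmo2* and *Hoxa9* higher than in undifferentiated cells. These are 5 of 7 genes, and 25.4% of all genes were called. The log2 fold change of *Sox4* was −2.29 ± 0.11 (adjusted p = 1.20e-39), of *Lmo2* 1.37 ± 0.05 (adjusted p = 6.19e-50) and of *Myb* 0.63 ± 0.05 (adjusted p = 1.32e-22). *Myb* was called by a small margin in size and was at 0.58 without replicate 2, where it was not called. The call of *Hoxa9* (1.40 ± 0.60, adjusted p = 0.0431) was lost without replicate 2 or 3 and under 3 other settings given with its reads. *Runx1* (−0.54 ± 0.06) and *Tal1* (−0.38 ± 0.04) passed on adjusted p but not on size.

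At the end of the neutrophil course *Sox4* and *Gata2* were again lower and *Myb* and *Lmo2* higher than in undifferentiated cells. These are 4 of 7 genes against 39.1% of all genes, and this comparison shares its controls with the one above. *Sox4* was 12.4-fold lower (log2 fold change −3.63 ± 0.11, adjusted p = 4.15e-59). *Lmo2* was 3.22-fold higher (1.69 ± 0.05, adjusted p = 2.02e-59) and *Myb* 2.81-fold higher (1.49 ± 0.05, adjusted p = 1.43e-54). *Runx1* stood at −0.37 ± 0.06 and *Tal1* at −0.48 ± 0.04, under the size threshold.

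Counted from the start of OHT in GCSF, 3 of 7 genes were called at 168h and all 3 were lower, with 24.8% of all genes called. The log2 fold change was −1.94 ± 0.11 for *Sox4* (adjusted p = 1.24e-33), −0.94 ± 0.05 for *Myb* (adjusted p = 9.56e-36) and −1.39 ± 0.51 for *Gata2* (adjusted p = 0.0160). The call of *Gata2* was lost without replicate 2 or 3 (adjusted p = 0.198 and 0.234), by edgeR (0.0657) and by DESeq2 (0.0801). *Lmo2* stood at −0.36 ± 0.05, *Tal1* at −0.42 ± 0.04 and *Runx1* at 0.15 ± 0.06. For *Myb* and *Lmo2* the higher level at the end of the neutrophil course was thus measured before OHT was added.

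**Figure D3:**
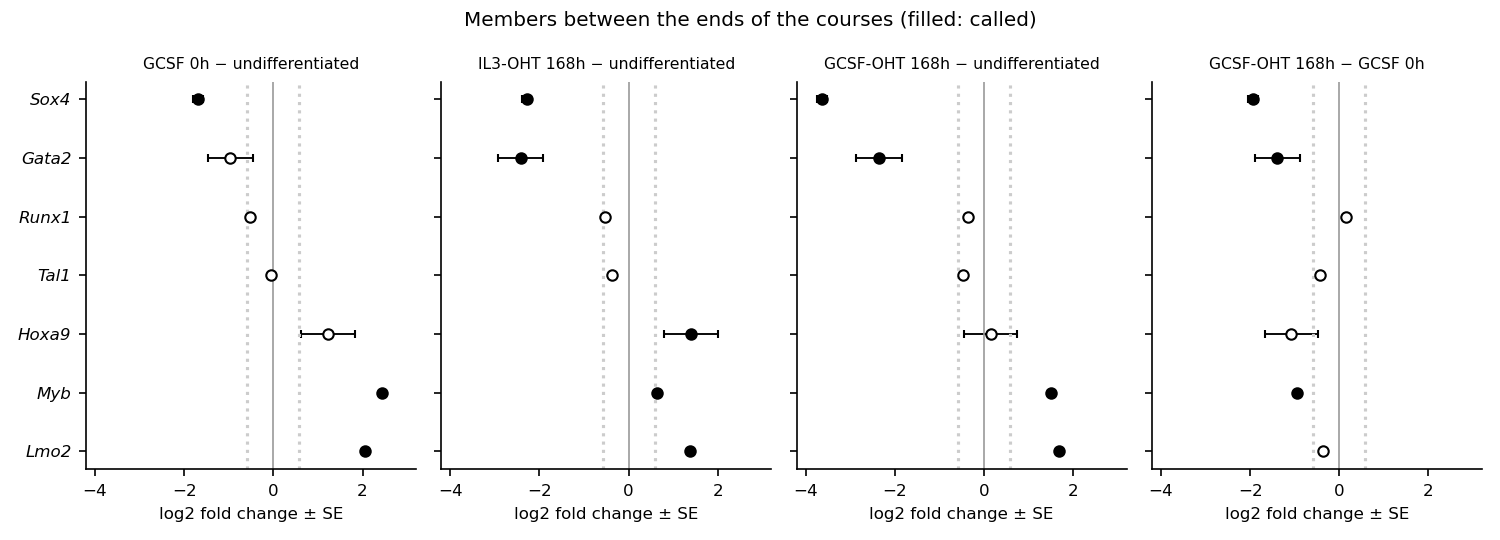
Log2 fold change ± SE (horizontal axes) of the 7 genes tested (vertical axis) in 4 comparisons. Filled points were called, open points were not, and dotted lines mark the size threshold of 0.58. *Sox4* lay left of −1.6 in all 4 comparisons and *Lmo2* right of 1.3 in 3 of them.

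The change after OHT differed between the courses for several genes, and cytokine, pre-treatment and OHT dose cannot be told apart in it. After 8h of OHT, 4 of 7 genes were called in IL3 (*Sox4*, *Gata2* and *Runx1* lower, *Lmo2* higher) and 29.7% of all genes were. The call of *Gata2* (−1.29 ± 0.51) was lost without replicate 1 or 2. In GCSF, only *Sox4* was called at 8h, by −1.11 ± 0.11 (adjusted p = 1.22e-16), against 9.40% of all genes. The difference between the 2 responses was called for 4 genes at 8h, with 27.4% of all genes called. *Runx1* fell by 0.88 in IL3 and stood at 0.20 ± 0.06 in GCSF, a difference of 1.08 ± 0.08 (adjusted p = 2.15e-24). *Lmo2* rose by 1.56 ± 0.05 in IL3 and stood at 0.42 ± 0.05 in GCSF, a difference of −1.14 ± 0.07 (adjusted p = 1.81e-29). *Sox4* fell by more in IL3 (−1.99 ± 0.11) than in GCSF, a difference of 0.88 ± 0.15 (adjusted p = 2.90e-07). For *Myb*, with 0.22 ± 0.05 in IL3 and −0.41 ± 0.05 in GCSF, the difference was −0.62 ± 0.07 (adjusted p = 7.60e-14).

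At 168h the difference between the responses was called for *Myb*, *Lmo2*, *Runx1* and *Hoxa9*, with 25.7% of all genes called. It was −1.57 ± 0.07 for *Myb* (adjusted p = 1.49e-41), −1.73 ± 0.07 for *Lmo2* (adjusted p = 6.26e-45) and 0.69 ± 0.08 for *Runx1* (adjusted p = 2.12e-13). For *Sox4* it was 0.35 with a 95% interval of 0.05 to 0.65 (adjusted p = 0.0502), and for *Tal1* −0.04 with an interval of −0.15 to 0.08. Averaged over the 25 shared time points, 4 of 7 genes differed between the courses, against 24.5% of all genes. *Myb* was 2.12-fold higher (log2 1.08 ± 0.01) and *Lmo2* 1.56-fold higher (0.64 ± 0.01) in GCSF, *Sox4* was 1.79-fold lower (−0.84 ± 0.02), and *Hoxa9* stood at −0.82 ± 0.12 on the log2 scale, a call lost with a pseudocount of 5 (−0.41). *Runx1* at 0.27 ± 0.01 and *Tal1* at −0.22 ± 0.01 were under the size threshold.

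*Gata2*, the GATA factor of stem and mast cell progenitors, was counted in few reads. Undifferentiated libraries held 14, 13 and 13 reads (normalized 18.3, 13.3 and 15.4), IL3-OHT 168h libraries 1, 2 and 4, and GCSF-OHT 168h libraries 7, 1 and 1. From the summed reads, *Gata2* was 6.61-fold lower at the IL3 end (95% exact interval 2.93 to 17.5) and 5.07-fold lower at the GCSF end (2.42 to 11.9), intervals that cover counting error only. The fall was not steady: IL3-OHT 40h libraries held 25, 8 and 21 reads, 1.05-fold lower than the start with an interval of 0.680 to 1.61. *Gata2* was called lower at 11 of 25 IL3 time points and, in GCSF, at 168h alone. With 1 replicate left out, it was called at 5 to 9 IL3 and 0 to 2 GCSF time points.

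*Hoxa9* had 3 reads or fewer in 94 libraries and at most 14 in any. Undifferentiated libraries held 1, 0 and 1 reads and IL3-OHT 88h libraries 6, 9 and 12, a ratio of 13.3 with a counting interval of 3.35 to 115.7. More than 3 reads were found in 49 of 81 IL3-OHT and in 21 of 78 GCSF-OHT libraries. The IL3 end, with 1, 5 and 7 reads, gave a log2 fold change of 1.40 ± 0.60 (adjusted p = 0.0431), and was not called without replicate 2 or 3, with a pseudocount of 5, without the filter on low values, or by DESeq2. The difference of −2.48 ± 0.85 at 168h (adjusted p = 0.0117) was likewise lost without replicate 2 or 3. It rests on GCSF 0h, where the libraries held 2, 12 and 1 reads. *Hoxa9* was called higher than in undifferentiated cells at 19 of 25 IL3 time points and lower than GCSF 0h at 2 of 27 GCSF time points, 120h and 152h. With 1 replicate left out, these counts ranged from 7 to 18 in IL3 and from 0 to 6 in GCSF. All IL3 calls share the same undifferentiated libraries. Its 1 called step, to GCSF-OHT 128h, is between such low counts. That step starts at 120h, whose libraries in both courses carry a library name prefix that no other library has. What the prefix stands for is not given, and its part in these values was not tested.

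*Meis1*, the cofactor of HOXA9, had 21 reads in all libraries together. The highest count was 5 reads, in 1 library of GCSF-OHT 104h. All 3 libraries of GCSF 0h, of IL3-OHT 168h and of GCSF-OHT 168h were at 0 reads, which allows up to 3 reads per library.

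**Figure D4:**
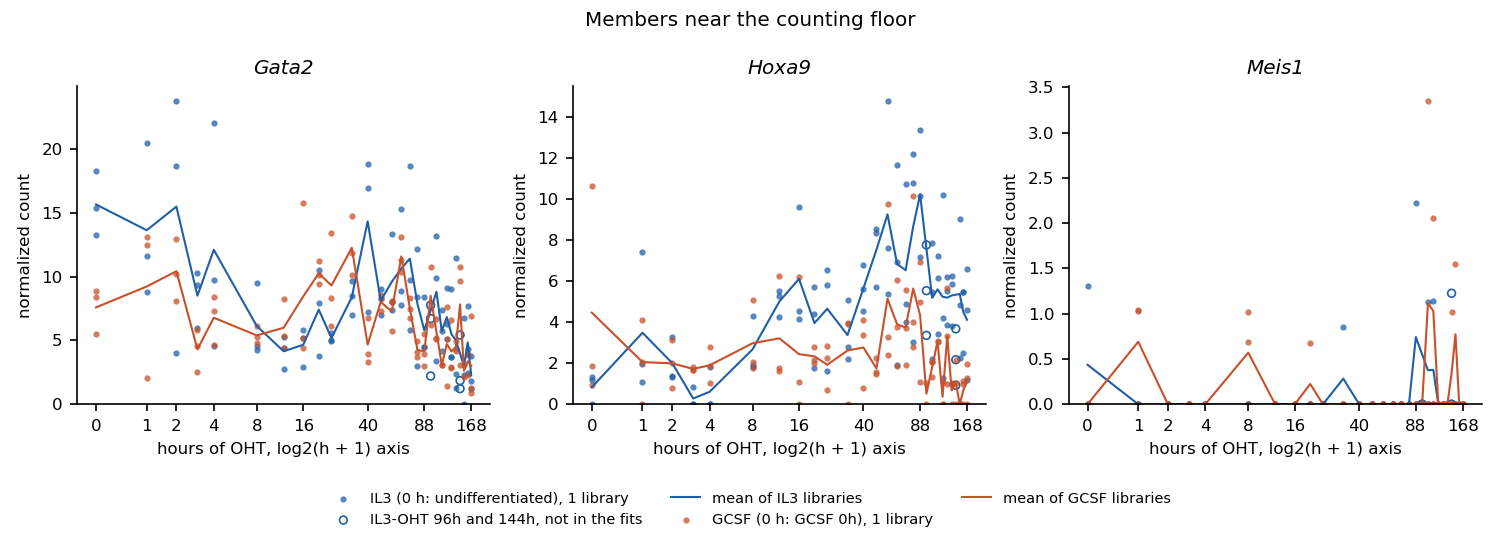
Normalized count (vertical axes, from 0) of *Gata2*, *Hoxa9* and *Meis1* against hours of OHT (horizontal axes, log2(h + 1) scale). Points are single libraries, lines group means, blue for IL3 and orange for GCSF, and open circles IL3-OHT 96h and 144h. *Gata2* stayed below 24, *Hoxa9* below 15 and *Meis1* below 4 in every library.

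Partners of LMO2 and TAL1 were unequal. Of 12 listed partners, 1 was called higher and 2 lower at the IL3 end (all genes: 10.2% higher, 15.2% lower), with a median log2 fold change of −0.11 beside −0.03 over all genes. At the GCSF end 3 were called higher and 1 lower (all genes: 15.5% higher, 23.6% lower), with a median of 0.12 beside −0.11. *Lyl1*, the closest relative of TAL1, rose from 153.8 ± 13.5 to 650 ± 56.0 in IL3 (log2 fold change 2.07 ± 0.09) and to 1813 ± 43.6 in GCSF (3.55 ± 0.09). *Ssbp2*, whose product stabilizes the LDB1 scaffold, moved both ways, from 54.2 ± 12.0 down to 23.6 ± 0.98 in IL3 and up to 193 ± 34.2 in GCSF. *Cbfa2t3*, a corepressor of the TAL1 complex, fell from 33.5 ± 8.00 to 9.0 ± 4.05 in IL3 and 3.58 ± 1.43 in GCSF. *Gata1* had at most 14 reads in any library.

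Of 5 paralogs and partners of RUNX1, 4 were tested, among them the paralog *Runx3* with at most 6 reads in any library. *Runx2*, a paralog, was the only one called, lower at the GCSF end (3612 ± 66.7 to 2400 ± 120, −0.59 ± 0.07). The 4 had median log2 fold changes of 0.34 at the IL3 end and 0.22 at the GCSF end, beside −0.03 and −0.11 over all genes. In the HOXA cluster and the TALE partners of HOX proteins, 13 of 18 genes were tested, and 3 were called higher and 3 lower at each end, beside the shares of all genes given above for each end. Their median was 0.37 at the IL3 end and −0.02 at the GCSF end. *Hoxa13*, the 5′-most gene of the cluster, fell from 196.7 ± 13.0 to 90.3 ± 7.83 in IL3 and 9.58 ± 3.16 in GCSF. *Pknox1*, a TALE partner, went from 711 ± 29.4 to 412 ± 14.3 in IL3 and to a mean of 429 in GCSF (−0.73 ± 0.07), and *Meis3* from 24.2 ± 5.08 to 9.15 ± 4.93 in GCSF. The relative of *Pknox1*, *Pknox2*, was called both ways, from 438 ± 6.08 up to 817 ± 46.9 in GCSF and down to a mean of 279 in IL3 (−0.65 ± 0.08). *Hoxa5* (6 reads at the start and 20 at the IL3 end) was called higher at counts near the floor.

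Among 8 relatives and cofactors of MYB, SOX and GATA factors, none was called higher and 2 lower at the IL3 end, and 1 higher and 3 lower at the GCSF end, against 10.2% and 15.2%, and 15.5% and 23.6%, of all genes. Their median was −0.45 at the IL3 end and −0.18 at the GCSF end. *Mybl2*, a cell-cycle MYB relative, fell from 1245 ± 54.3 to 775 ± 71.1 in IL3. *Gata3* fell from 43.1 ± 15.5 to 19.4 ± 2.15 in IL3 and 11.2 ± 5.42 in GCSF. *Zfpm1*, which encodes the GATA cofactor FOG1, fell from 39.9 ± 1.70 to 3.51 ± 1.64 in GCSF, and *Ep300*, a coactivator of MYB, rose from 4656 ± 309 to 7016 ± 19.7.

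Among 12 other stem and progenitor factors 7 were tested. At the IL3 end 2 were called higher and 3 lower (all genes: 10.2% and 15.2%), with a median of −0.46 beside −0.03 over all genes. At the GCSF end 4 were called higher and 1 lower (all genes: 15.5% and 23.6%), with a median of 0.66 beside −0.11. *Ikzf1* (Ikaros) rose from 916 ± 67.9 to 2126 ± 57.4 in IL3 and 5541 ± 359 in GCSF, and *Bcl11a* from 124 ± 12.2 to 234 ± 24.5 and 647 ± 45.4. *Hlf* was called both ways, from 188.8 ± 7.08 down to 74.3 ± 7.73 in IL3 and up to a mean of 299 in GCSF (0.66 ± 0.11). *Hhex* fell from 3096 ± 156 to 1847 ± 31.3 in IL3, and *Ikzf2* (Helios) from 826 ± 43.96 to 213.8 ± 15.8 in GCSF. *Mecom*, *Zfp521* and *Mycn* had at most 3 reads in any library. Of the proliferation list, *Pcna* (−1.21 ± 0.05) and *Ccnb1* (−0.91 ± 0.08) fell most at the IL3 end, and *Tyms* (1.31 ± 0.10) and *Mki67* (1.29 ± 0.09) rose most at the GCSF end, where 12 of 15 were called higher (all genes: 15.5%).

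The genes whose group means followed each expressed gene most closely over 54 groups were found by Pearson r on the log2 scale, as a description, since all groups share libraries and scaling. For *Sox4* they were *Slc35e4* (r = 0.93), *Ltbp3* (0.93) and *Tacc2* (0.93), all with their highest mean at IL3-OHT 1h. For *Myb* they were *Tnfaip8* (0.98), *Ifngr1* (0.96) and *Gnpat* (0.96), and for *Lmo2* *Mfn2*, *Acot8* and *Ankmy2* (0.91, 0.90 and 0.90). *Tal1* was followed by *Nckap1* (0.93), *Steap3* (0.90) and *Imp4* (0.88). For *Runx1* the closest were *Fam107b*, *Aff1* and *Ccdc88b* at 0.80, 0.80 and 0.79, each lowest at IL3-OHT 8h like *Runx1*. Between the expressed genes themselves, r was highest for *Myb* and *Lmo2* (0.87) and lowest for *Sox4* and *Lmo2* (−0.75).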

How the data were processed

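PolyA RNA of PUER cells was sequenced by the authors and quantified with Salmon against GRCm38. The deposited values are gene counts divided by DESeq2 median-of-ratios size factors (a normalized signal, with no log and no length correction), so genes of different length were compared only per kb of exon. Each library's values were whole multiples of 1 step (100% within 0.01 read), and whole reads were recovered from these steps, which are the depths given. Groups came from the sample titles. The titles of the GCSF 0h libraries name OHT, but these were treated as taken before OHT, as the study's methods describe them. The 8 genes and all lists were chosen with earlier results of these data known. log2(normalized count + 1) was fitted with limma 3.58.1 (R 4.3.3, 1 mean per group, eBayes with trend) over 159 libraries and 54 groups, for the 17414 genes that reached 5 normalized counts in any library. Both IL3-OHT groups at 96h and 144h were omitted, following the study's methods. The test was tried on simulated data. edgeR 4.0.16 and DESeq2 1.42.0 on recovered reads were alternatives, since the study used DESeq2 on counts. Ratios of summed reads carry exact 95% intervals. Genes named besides the members were the 3 with the highest r to each member and, per list and end, the 2 with the largest change each way among those called. Marker genes are named where at or under the floor of 3 reads. *Kit*, *Cd34*, *Flt3*, *Cd27*, *Ly6a*, *Gata1*, *Runx3*, *Mecom*, *Zfp521*, *Mycn*, *Hdc*, *Mcpt8*, *Klf1*, *Epor*, *Vwf*, *Itga2b*, *Gp1bb*, *Pf4*, *Ppbp* and *Gp9* were added after their values were seen. Some genes that these rules would name are not reported here.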

Additional observations from a re-analysis of the deposited data

Results flagged for a closer look

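The change after OHT differed between the courses by a test of the difference itself (limma interaction contrast, log2 scale, change from 0h in GCSF minus that in IL3). Cytokine, pre-treatment and OHT dose cannot be told apart in it, and neither course has later libraries without OHT. At 8h the difference was 0.8818 for *Sox4*, −0.6218 for *Myb*, 1.085 for *Runx1* and −1.136 for *Lmo2*. At 168h it was −1.568 for *Myb*, 0.6945 for *Runx1*, −2.476 for *Hoxa9* and −1.728 for *Lmo2*. The *Hoxa9* difference rests on few reads, 12 of them in 1 GCSF 0h library. Its value without replicate 2 was −1.31 (adjusted p = 0.353, limma).

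The IL3-OHT libraries of 96h and 144h entered no comparison. At 96h the mean normalized count was 3140.66 for *Myb*, 3368.65 for *Lmo2* and 5.5543 for *Hoxa9*, and at 144h it was 3820.31 for *Lmo2*, and in each case every library lay above the highest undifferentiated one. *Hoxa9* at 96h was 3, 7 and 5 reads.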

How the results depend on the processing

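All 132 recounts of genes called stayed within 1.5 times the count reported. Of the values of single genes, 873 kept direction and call, 20 lost and 5 gained a call, and 4 changed sign. The 4 are low-count values that were not called: *Hoxa9* ranged from −0.38 to 0.78 at the GCSF endpoint, from −0.71 to 0.80 at 8h in GCSF and from −2.11 to 0.45 in the difference at 8h, and *Gata2* from −0.16 to 1.83 in the difference at 168h, when 1 replicate was left out. Genes called at the IL3 endpoint went from 5 to 3 with a mean of at least 10 required, which removes *Gata2* and *Hoxa9*, and ranged from 3 to 5 without 1 replicate. Over the GCSF course they likewise went from 5 to 3, and ranged from 3 to 5. Called steps ranged from 8 to 13 without 1 replicate. Of the 15 genes most like a member, 4 were kept with linear counts. The causes were not tested beyond the filter.

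Replicates shared numbers across groups, but same-numbered samples correlated at only −0.143 to 0.118, so the numbers were not used as pairs. Between undifferentiated and IL3-OHT 168h, all 3 samples correlated best with their own number. There r was 0.056 to 0.078 for the same number and −0.063 to 0.0017 for other numbers. With the replicate block 5 genes were called at the IL3 endpoint, 4 at the GCSF endpoint and 9 steps instead of 8, and no count of members called in a comparison between groups changed.

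Depth limits *Gata2*, *Hoxa9* and *Meis1*, where 3 reads correspond to 1.957 to 5.51 normalized counts.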
